A study of Homo sapiens with 4 samples.

Results

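The 10 genes CCN1, CCN2, ANKRD1, AMOTL2, AJUBA, LATS2, PTPN14, AXL, F3 and FJX1, known as transcriptional targets of YAP and TEAD, were compared between hypoxia and normoxia. They were chosen by symbol, with the difference between these same libraries already known, so their values are a description and none of them was tested. All 10 were among the 15562 genes in the RNA-seq tables, and all 10 passed the filter of a CPM (counts scaled to a common library size) of 1 or more in at least 1 library, as did 12725 genes in all. The cells were H1975, a human lung adenocarcinoma line that carries mutant EGFR, labelled WT in genotype. The hypoxia library came from cells kept for 24 h in an incubator with a gas mix of 1% O2, 5% CO2 and 94% N2. The normoxia library came from the same line kept for 24 h in ordinary culture at 5% CO2. The series also holds a miRNA library of each condition, not used here.

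YAP and its paralogue TAZ (gene WWTR1) are coactivators that bind no DNA themselves and act on genes mainly through the TEAD transcription factors. The Hippo kinases are the MST kinases (STK3, STK4) and LATS1 and LATS2. Of these, LATS1 and LATS2 phosphorylate YAP and TAZ and so hold them in the cytoplasm. Cell spreading, matrix stiffness and actin tension favour the entry of YAP and TAZ into the nucleus. Among the target genes are secreted matricellular proteins, a surface receptor and several inhibitors of YAP itself, through which the pathway restrains its own output.

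There was 1 library per condition, so no spread between cultures could be measured and no p-value was computed. Each ratio of hypoxia to normoxia is of counts scaled by TMM (trimmed mean of M values), with the 95% interval that counting error alone allows. By the size rule used here, a gene was called lower or higher when its log2 ratio was 0.32 or more either way and this interval excluded 0. By that rule 6 of the 10 genes were called lower in hypoxia and 0 higher, where 3.29% of all genes tested were called lower and 3.41% higher. Since the choice of genes used this contrast, nothing is read from the difference between these shares. The interval of the log2 ratio lay wholly below 0 for 8 of the 10 genes and wholly above 0 for 1, against 14.0% and 15.0% of all genes. The median log2 ratio was -0.43 over the 10 genes and 0.0032 over all genes tested. With 1.5-fold in place of this size, 3 of the 10 were called lower and 0 higher (1.12% and 1.21% of all genes), and with 2-fold 0 were called in either direction (0.44% lower and 0.472% higher).

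The libraries held 18943320 counts in hypoxia and 17643836 in normoxia. Of 10 genes known to be activated by hypoxia-inducible factors (HIF), 9 were called higher in hypoxia, against 3.41% of all genes tested. Their median log2 ratio was 0.65. This list too was chosen with earlier results of these data known, so it is no independent check of the labels. Of the 9 lung epithelial markers, 8 passed the filter, and the summed level of the 9 was 8295 CPM in hypoxia and 9166 CPM in normoxia. The summed fibroblast markers had 121 and 115 CPM in the same order, with 6 of 6 in the table and the collagen COL1A1 holding most of the counts. Single markers moved within these sums: COL3A1, with 60 counts in hypoxia and 25 in normoxia, was called higher at a log2 ratio of 1.17 (0.47 to 1.91), while COL1A2 was called lower at -0.35 (-0.62 to -0.09), as was the epithelial keratin KRT7 at -0.42 (-0.45 to -0.40). Leukocyte markers had 237 CPM in hypoxia and 240 CPM in normoxia, most of it from CD68, with CD14 called lower at -0.44 (-0.66 to -0.23), and the pan-leukocyte PTPRC had 2 counts in hypoxia and 0 in normoxia. Endothelial markers had 5.51 CPM in hypoxia and 5.82 CPM in normoxia, with VWF at 2 counts in hypoxia and 0 in normoxia. Of these markers CDH5 and PECAM1 passed the filter, at log2 ratios of -0.45 and 0.64, and neither was called. The part of these markers in the ratios below was not tested. Both libraries came from the H1975 line alone, so a marker named for another cell type is not read as the presence of such cells. In a bulk library, a change in all cells and a change in some of them cannot be told apart.

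The genes with the lowest ratios were the secreted matricellular proteins CCN1 and CCN2 and the nuclear cofactor ANKRD1. CCN1 (formerly CYR61), which binds integrins and is a standard readout of YAP activity, had 4277 counts in hypoxia and 6387 in normoxia. Its level was 99.1 FPKM in hypoxia and 159 FPKM in normoxia, the highest of the 10 genes in both libraries. The hypoxia library was thus the low one, by 1.59-fold after TMM scaling, a log2 ratio of -0.67 (-0.73 to -0.62). By FPKM it ranked 660th of 12725 genes in hypoxia and 384th in normoxia. Of the 687 other genes with a mean CPM within 1.5-fold of that of CCN1, 0 had a log2 ratio as low. Here and below, such positions use the contrast by which the genes were chosen, so nothing is read from them.

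CCN2 (formerly CTGF), the connective tissue growth factor linked to fibrosis and matrix production, had 1202 counts in hypoxia and 1768 in normoxia. Its level was 27.1 FPKM in hypoxia and 42.9 FPKM in normoxia. Hypoxia was again the low library, by 1.57-fold after scaling, a log2 ratio of -0.65 (-0.76 to -0.54). Of 2622 other genes of similar level 0 had a ratio as low. The difference between the log2 ratios of CCN1 and CCN2 was -0.02 (-0.14 to 0.10), so no gap between the pair was detectable at this depth, and the FPKM of CCN1 was 3.65 times that of CCN2 in hypoxia and 3.71 times in normoxia.

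ANKRD1, a nuclear ankyrin repeat protein that is abundant in stressed heart muscle, had 100 counts in hypoxia and 155 in normoxia. Its level was 2.95 FPKM in hypoxia and 4.91 FPKM in normoxia, the lowest of the 10 genes in hypoxia and, above LATS2, the next to lowest in normoxia. The fold was the largest of the 10 and the least precise, 1.65-fold lower, with a log2 ratio of -0.72 (-1.10 to -0.35). Of 1228 other genes of similar level 4 had a ratio as low. These 3 genes are the ones that passed the 1.5-fold rule.

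**Figure D1:**
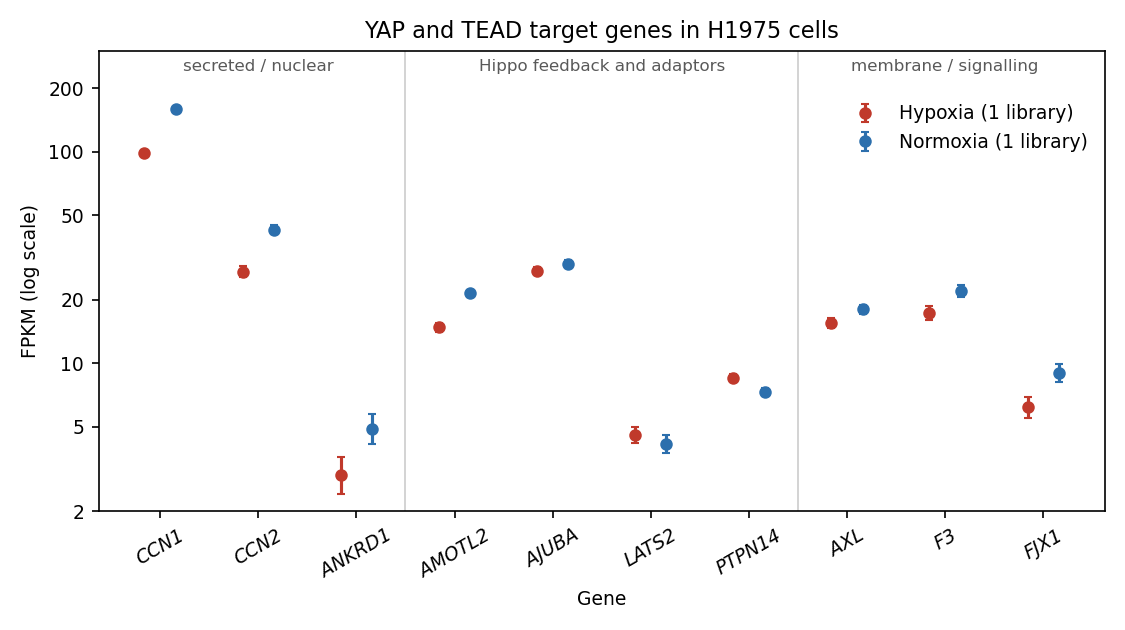
Level of each gene in FPKM (log axis) in the hypoxia library (red, left of each pair) and the normoxia library (blue), with 95% Poisson counting intervals, 1 library each. CCN1 lies at 99.1 FPKM in hypoxia and 159 FPKM in normoxia, and LATS2 and PTPN14 are the genes whose hypoxia point is the higher one.

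The promoters of CCN2 and ANKRD1 are shown because these 2 genes had the most matches to the TEAD core motif among the windows searched. The letters searched were GGAATG, on both strands, in the 250 bases before the start of each gene (RefSeq sequence, GRCh38.p14). Windows were found for 9 of the 10 genes, 12 windows in all since AMOTL2, AJUBA and AXL each had 2 starts. CCN1 (GRCh38.p14 chromosome 1, 85580761 to 85583950) is named only. The sequences run 5′ to 3′ on the strand of the gene, which for both is the minus strand, and capitals mark the motif.
CCN2, chr6:131951373-131951622: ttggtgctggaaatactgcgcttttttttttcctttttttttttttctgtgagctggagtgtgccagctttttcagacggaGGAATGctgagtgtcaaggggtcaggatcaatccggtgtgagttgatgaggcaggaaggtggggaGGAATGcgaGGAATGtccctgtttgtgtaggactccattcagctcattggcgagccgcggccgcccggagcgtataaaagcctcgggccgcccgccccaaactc
ANKRD1, chr10:90921088-90921337: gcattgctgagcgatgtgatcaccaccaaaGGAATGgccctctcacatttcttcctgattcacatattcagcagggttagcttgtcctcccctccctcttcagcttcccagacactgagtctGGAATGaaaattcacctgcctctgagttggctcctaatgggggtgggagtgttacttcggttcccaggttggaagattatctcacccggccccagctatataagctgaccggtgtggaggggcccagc
The 3 matches in CCN2 began 169, 104 and 95 bases before the start, and the 2 in ANKRD1 began 220 and 128 bases before it. At least 1 match was held by 11.9% of all 35097 windows, 2 or more by 0.94% and 3 or more by 0.0826%. Among windows of genes that passed the filter, 10.1% held at least 1. Of the 12 windows of the 10 genes 6 held a match. The genes were chosen as known targets of TEAD, so nothing is read from that share. CCN2 and ANKRD1 were also picked for their matches, so nothing is read from their numbers of matches beside the shares of all windows.

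The 4 genes that act back on the Hippo pathway did not share a direction. AMOTL2, an angiomotin that binds YAP at junctions and on actin and so restrains it, had 1560 counts in hypoxia and 2102 in normoxia. Its level was 14.8 FPKM in hypoxia and 21.4 FPKM in normoxia, 1.44-fold lower, with a log2 ratio of -0.52 (-0.62 to -0.43). It was the only one of these 4 that was called, and 2 of 2294 other genes of similar level had a ratio as low. AJUBA, a LIM protein that binds and inhibits LATS kinases under tension, had 2446 counts in hypoxia and 2454 in normoxia. Its level was 27.3 FPKM in hypoxia and 29.4 FPKM in normoxia. After scaling its log2 ratio was -0.10 (-0.18 to -0.02), so hypoxia was the lower library, short of the size rule.

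LATS2, the kinase that phosphorylates YAP and TAZ, had 485 counts in hypoxia and 409 in normoxia. Its level was 4.58 FPKM in hypoxia and 4.15 FPKM in normoxia, and the log2 ratio of scaled counts was 0.15 (-0.04 to 0.35), an interval that includes 0. A difference in LATS2 was therefore not detectable at this depth. PTPN14, a phosphatase that binds YAP and keeps it out of the nucleus, had 2199 counts in hypoxia and 1753 in normoxia. Its level was 8.54 FPKM in hypoxia and 7.31 FPKM in normoxia, and the log2 ratio of scaled counts was 0.23 (0.14 to 0.33). PTPN14 was the highest of the 10 genes by ratio and the only one whose interval lay wholly above 0, yet it did not reach the size rule. Between CCN1 and PTPN14 the log2 ratios differed by -0.91 (-1.01 to -0.80). The FPKM of CCN1 was 11.6 times that of PTPN14 in hypoxia and 21.7 times in normoxia. Both genes were chosen with this contrast known, so nothing is read from that gap. With the trend with gene length removed, described below, CCN1 was at -0.63 and PTPN14 at 0.16, which lie closer together.

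The TEAD core occurred in windows of both AMOTL2 and PTPN14, which differed in direction, and the stretches that hold it are shown for that reason. For AMOTL2 the match lies before the second of 2 starts, and 30 bases are given; for PTPN14 the whole window is given. Both run on the minus strand of the genome, and capitals mark the motif in its reverse orientation.
AMOTL2, chr3:134374499-134374528: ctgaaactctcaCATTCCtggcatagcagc
PTPN14, chr1:214551603-214551852: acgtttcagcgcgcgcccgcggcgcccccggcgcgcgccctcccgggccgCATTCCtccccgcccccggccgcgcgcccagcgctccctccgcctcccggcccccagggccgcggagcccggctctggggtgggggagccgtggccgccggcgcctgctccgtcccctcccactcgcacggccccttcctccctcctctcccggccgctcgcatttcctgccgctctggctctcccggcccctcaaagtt
The match began 69 bases before the second start in AMOTL2 and 200 bases before the start in PTPN14. The second windows of AJUBA and AXL held 1 match each, at 59 and 212 bases, and none was found in the windows of LATS2, F3 and FJX1. The 4 genes with a single match, AMOTL2, AJUBA, AXL and PTPN14, had log2 ratios between -0.52 and 0.23. Those with no match, FJX1, F3 and LATS2, were at -0.53, -0.34 and 0.15. A relation between matches and ratio was not tested.

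**Figure D2:**
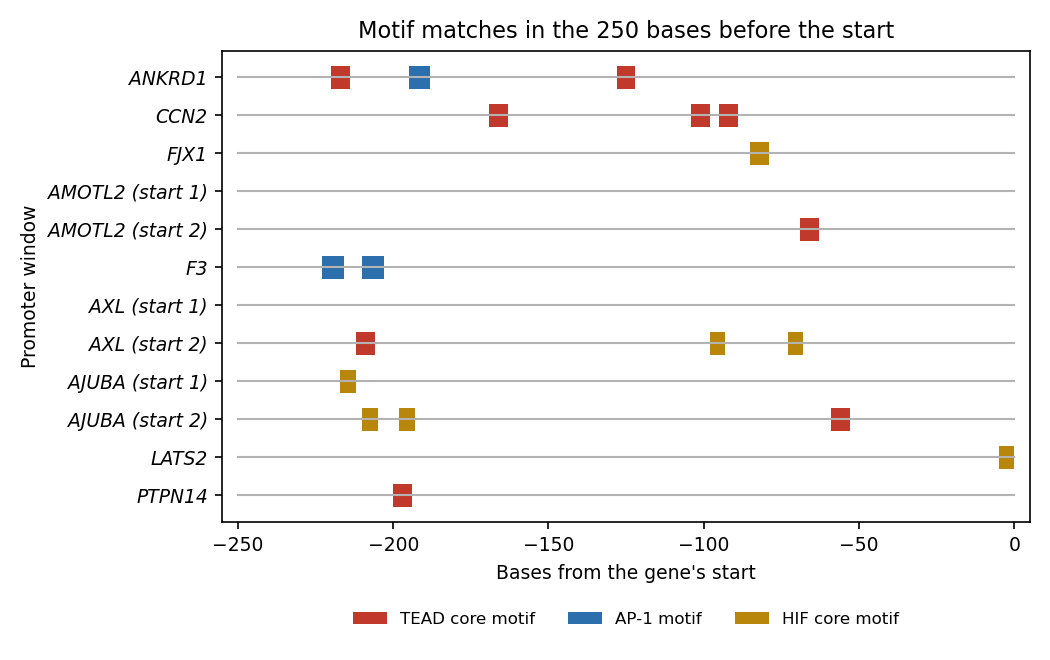
Motif matches in the 250 bases before each start (x axis, bases from the start) for the 12 windows of 9 genes, ordered from the lowest ratio of hypoxia to normoxia at the top to the highest at the bottom. Red bars are TEAD core, blue AP-1 and gold HIF core matches; CCN2 has 3 red bars and ANKRD1 has 2.

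Other motifs were searched in the same windows. The AP-1 letters TGANTCA, which read the same on both strands so that each match counts once, occurred in the windows of ANKRD1 (1 match) and F3 (2 matches), against 6.57% of all windows with at least 1. The HIF core ACGTG occurred in 5 of the 12 windows, those of LATS2, FJX1, both AJUBA starts and 1 AXL start, against 18.5% of all windows. The 2 matches in FJX1 overlap on opposite strands. The CArG box, bound by the serum response factor, occurred in 0 of the 12 windows and in 1.16% of all windows. In windows of genes that passed the filter, the shares were 4.45% for AP-1, 22.1% for the HIF core and 1.06% for the CArG box. The motifs were searched separately, and a match is no evidence of binding.

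The 3 genes of the cell surface and secretory pathway all had log2 ratios below 0, and 2 of them, F3 and FJX1, were called lower. AXL, a receptor tyrosine kinase linked to resistance to EGFR inhibitors, had 1436 counts in hypoxia and 1546 in normoxia. Its level was 15.5 FPKM in hypoxia and 18 FPKM in normoxia, and the log2 ratio of scaled counts was -0.20 (-0.30 to -0.09), which did not reach the size rule. F3, tissue factor, the receptor that starts the clotting cascade, had 753 counts in hypoxia and 893 in normoxia. Its level was 17.3 FPKM in hypoxia and 22 FPKM in normoxia, 1.26-fold lower, with a log2 ratio of -0.34 (-0.48 to -0.20). F3 lay just inside the size rule. FJX1, the human relative of the Drosophila kinase four-jointed, which acts on Fat and Dachsous cadherins in the fly, had 282 counts in hypoxia and 382 in normoxia. Its level was 6.19 FPKM in hypoxia and 9.0 FPKM in normoxia, 1.44-fold lower, with a log2 ratio of -0.53 (-0.76 to -0.30).

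**Figure D3:**
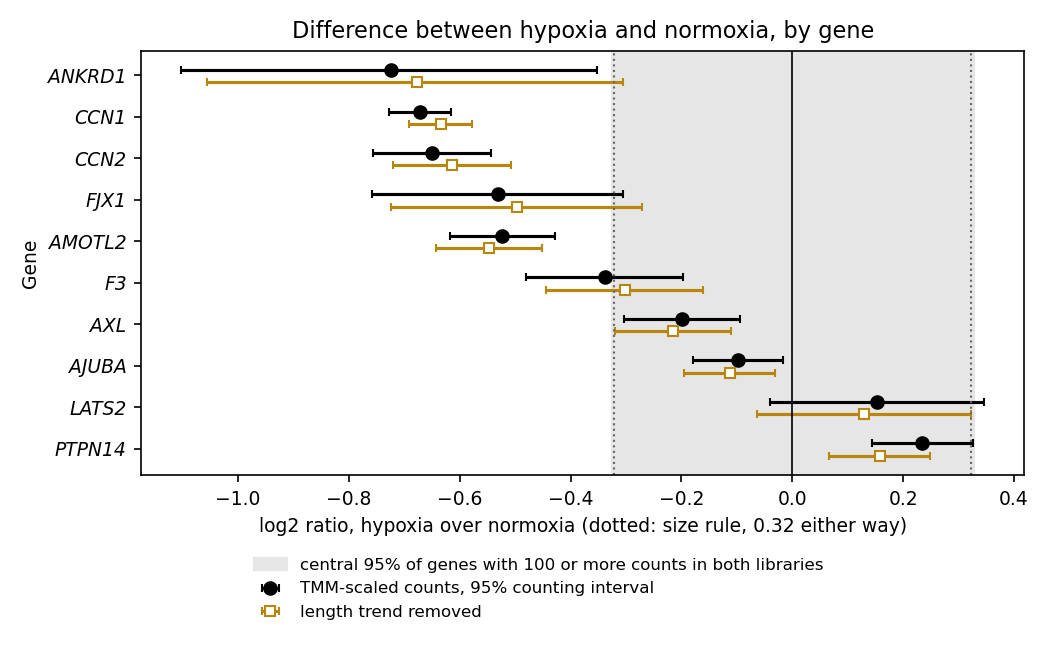
Log2 ratio of hypoxia to normoxia for each gene, ordered from lowest to highest, as TMM-scaled counts (black circles) and after removal of the trend with gene length (gold squares), with 95% counting intervals. The grey band spans -0.33 to 0.33, the central 95% of genes counted 100 or more times in each library, and 5 genes lie well to its left.

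Ordered by log2 ratio, ANKRD1, CCN1 and CCN2 stood lowest, with overlapping intervals. FJX1 and AMOTL2 came next at -0.53 and -0.52, and the intervals of FJX1 and CCN1 overlap, while those of AMOTL2 and CCN1 touch only at -0.62. F3, AXL and AJUBA followed, each overlapping its neighbour, and LATS2 and PTPN14 stood highest and overlap each other. Among other genes of similar level, 8 of 2399 had a ratio as low as FJX1 and 28 of 3078 as low as F3. For AXL it was 117 of 2599 and for AJUBA 309 of 1742. A ratio as high was held by 469 of 2726 for LATS2 and 62 of 2154 for PTPN14. All such positions use the contrast by which the genes were chosen, so nothing is read from them. All 10 genes had 100 or more counts in both libraries. Among the 10739 genes counted that often, the central 95% of log2 ratios ran from -0.33 to 0.33. Of them 2.45% were called lower and 2.54% higher by the size rule, and 0.196% lower and 0.279% higher at 1.5-fold.

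Gene length moved with the ratio across the whole table. The median log2 ratio was -0.05 in the shortest 2545 genes and 0.05 in the longest 2545. Of the 10 genes, CCN1, CCN2, ANKRD1, F3 and FJX1 are short, between 1790 and 2406 bases by the length implied by the FPKM, and PTPN14 is the longest at 13589 bases. With the trend removed CCN1 was at -0.63 (-0.69 to -0.58), CCN2 at -0.61 (-0.72 to -0.51), ANKRD1 at -0.68 (-1.06 to -0.31) and PTPN14 at 0.16 (0.07 to 0.25). F3 moved to -0.30 (-0.44 to -0.16), outside the size rule, so that 5 of the 10 were called lower.

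**Figure D4:**
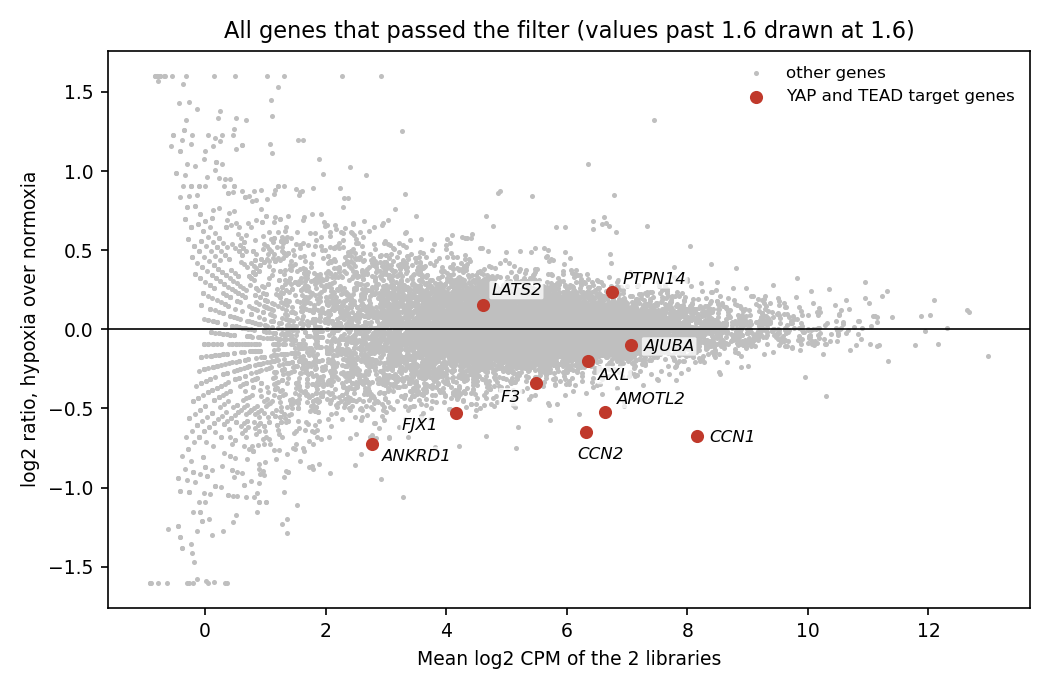
Log2 ratio of hypoxia to normoxia (y axis) against mean log2 CPM of the 2 libraries (x axis) for all 12725 genes that passed the filter (grey) and the 10 target genes (red). CCN1, CCN2, ANKRD1, AMOTL2 and FJX1 lie below nearly all genes of their level, and AJUBA, LATS2 and AXL lie within the cloud. The 10 genes were chosen with this contrast known, so nothing is read from these positions.

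Other genes of a published YAP and TAZ target signature were read in the same way, from a list taken whole and with earlier results of these data known. Of 13 such genes 12 passed the filter, and 1 was called lower and 1 higher (3.29% and 3.41% of all genes tested). Their median log2 ratio was 0.01. The interval of 3 lay wholly above 0 and that of 4 wholly below. NUAK2, a kinase that promotes actomyosin contraction, had 112 counts in hypoxia, against 162 in normoxia, giving a log2 ratio of -0.63 (-0.99 to -0.27). IGFBP3, a carrier of insulin-like growth factors, had 2222 counts in hypoxia, against 1010 in normoxia, giving a log2 ratio of 1.04 (0.94 to 1.15). The membrane repair protein MYOF had the highest level of this list, 115 FPKM in hypoxia and 107 FPKM in normoxia, and a log2 ratio of 0.11 (0.08 to 0.14). TGFB2, a growth factor, was at -0.23 (-0.39 to -0.08), while the surface enzyme NT5E was at 0.01 (-0.09 to 0.11) and CRIM1 at 0.01 (-0.05 to 0.07).

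Among 10 further reported targets 0 were called in either direction, where 3.29% of all genes tested were called lower and 3.41% higher. Their median log2 ratio was -0.10. MYC had 16870 counts in hypoxia, against 19467 in normoxia, giving a log2 ratio of -0.30 (-0.33 to -0.27), and the matrix protein THBS1 was at -0.21 (-0.27 to -0.15). The transglutaminase TGM2 was at 0.25 (0.18 to 0.31). The extremes of this list rested on few reads, with EDN1 at -0.44 (-0.96 to 0.07) from 59 hypoxia and 75 normoxia counts, and FGF1 at 0.38 (-0.55 to 1.34) on 25 and 18 in the same order.

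**Figure D5:**
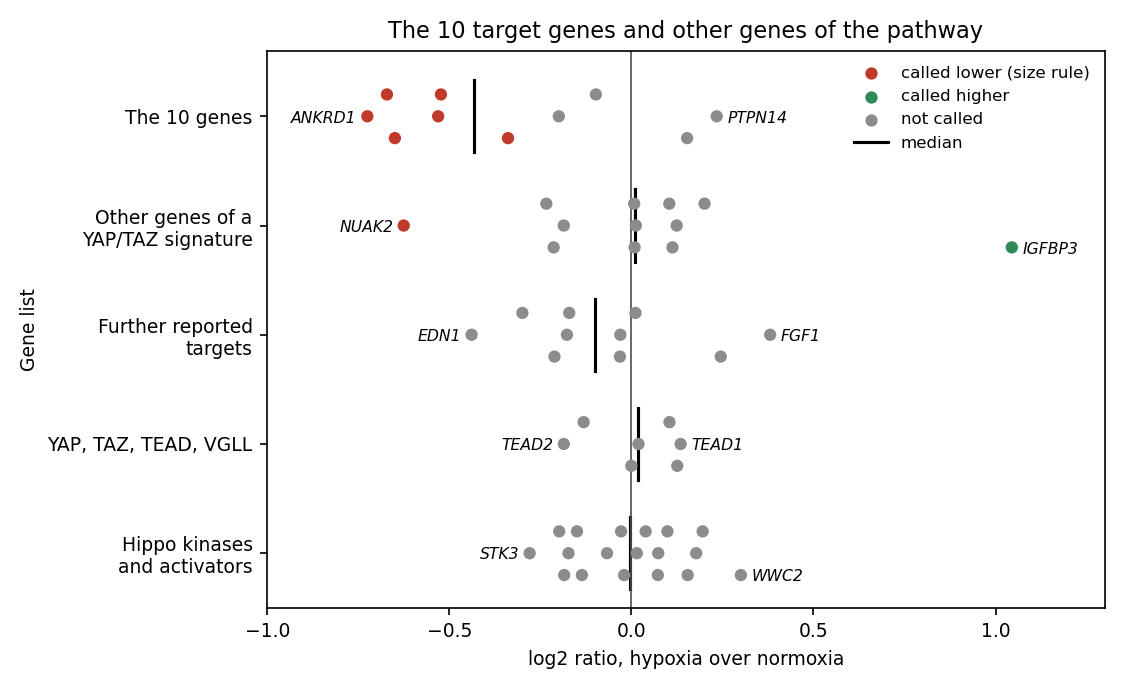
Log2 ratio of hypoxia to normoxia for each gene that passed the filter, by list, with the median as a black bar and the lowest and highest gene named. The median of the 10 target genes, chosen with this contrast known, is -0.43, and those of the other 4 lists lie between -0.10 and 0.02.

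Of the coactivators and their partners, 7 genes passed the filter and 0 were called. YAP1 had 3092 counts in hypoxia and 2657 in normoxia, 26.4 FPKM and 24.3 FPKM in the same order, with a log2 ratio of 0.13 (0.05 to 0.20). WWTR1 had 2684 counts in hypoxia and 2517 in normoxia, with a scaled ratio of 1.00 (0.947 to 1.06). TEAD1 was at 0.14 (0.04 to 0.23), TEAD4 at 0.10 (-0.11 to 0.32), TEAD3 at -0.13 (-0.34 to 0.08) and TEAD2 at -0.19 (-0.33 to -0.04). VGLL4, a competitor of YAP for TEAD, was at 0.02 (-0.09 to 0.13). Of 18 Hippo kinases and activators, 0 were called and the median was -0.0024, with 5 intervals wholly above 0 and 3 wholly below. Of all genes tested, 3.29% were called lower and 3.41% higher. In lists this short, 0 called is near those shares and is not read as an absence of change. WWC2, the relative of the adaptor KIBRA, was highest at 0.30 (0.16 to 0.44) and the MST kinase STK3 lowest at -0.28 (-0.60 to 0.04). NF2, the membrane scaffold merlin, was at -0.17 (-0.23 to -0.12). LATS1 had 323 counts in hypoxia, against 288 in normoxia, giving a log2 ratio of 0.07 (-0.16 to 0.31), and differed from LATS2 by 0.08 (-0.23 to 0.39, LATS2 minus LATS1).

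Close relatives of the target genes did not all lie on the same side. CCN5 had 2639 counts in hypoxia and 1615 in normoxia, 70.0 FPKM and 46.0 FPKM in the same order, and was called higher with a log2 ratio of 0.62 (0.53 to 0.71). CCN3 had 190 counts in hypoxia and 128 in normoxia and was also called higher, at 0.48 (0.15 to 0.81). CCN4 and CCN6 had at most 1 count in either library. CCN5, which lacks the C-terminal domain that CCN1 and CCN2 carry, and CCN3 were thus higher in hypoxia where CCN1 and CCN2 were lower. AMOT, the founding angiomotin, had 16 counts in hypoxia and 13 in normoxia, and AMOTL1 was at 0.20 (-0.16 to 0.56), so AMOTL2 was the main angiomotin transcript by FPKM. Of the relatives of ANKRD1, ANKRD23 was at -0.15 (-0.57 to 0.26) and ANKRD2 had 5 counts in hypoxia and 13 in normoxia.

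The LIM protein WTIP, a relative of AJUBA, was called lower at -0.82 (-1.50 to -0.16) from 32 hypoxia and 53 normoxia counts. LPP was highest of these relatives at 0.14 (-0.05 to 0.32), with LIMD1 at 0.12 (0.01 to 0.24), ZYX at -0.12 (-0.18 to -0.06) and TRIP6 at -0.15 (-0.20 to -0.09). The 4 phosphatases related to PTPN14 had log2 ratios between 0.02 (PTPN13) and 0.19 (PTPN21), with 0 called. GAS6, the ligand of AXL, had 203 counts in hypoxia and 265 in normoxia and was called lower at -0.48 (-0.75 to -0.21), while the other ligand of this receptor family, PROS1, was at 0.16 (0.06 to 0.26). Of the partners of tissue factor, its inhibitor TFPI was at -0.07 (-0.17 to 0.03) and the anticoagulant receptor THBD was called lower at -0.61 (-1.09 to -0.14), from 65 hypoxia and 93 normoxia counts. The protease-activated receptor F2RL1, highest of these partners, was at 0.15 (0.09 to 0.20). F7, the clotting factor that F3 binds, had 3 counts in hypoxia and 1 in normoxia. The cadherins FAT1 and FAT4 were at 0.19 (0.12 to 0.27) and 0.20 (-0.09 to 0.48), and DCHS1 had 0 counts in hypoxia and 1 in normoxia.

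By RefSeq annotation, none of the 10 genes overlaps another gene of the count table. CCN2 (GRCh38.p14 chromosome 6, 131948176 to 131951372) overlaps the noncoding CCN2-AS1, AJUBA (chromosome 14, 22971177 to 22982551) a noncoding RNA on the other strand, and PTPN14 (chromosome 1, 214348700 to 214551602) a noncoding RNA and the pseudogenes AP3S1P2 and KRT18P12. AMOTL2 overlaps the microRNA gene MIR6827, LATS2 the pseudogene RNU4-9P and AXL the pseudogene TRK-TTT10-1. The labels do not say whether reads were counted by strand, so reads from these partners cannot be told apart from those of the 6 genes. The spans of CCN1, ANKRD1 (chromosome 10, 90912096 to 90921087), F3 (chromosome 1, 94529173 to 94541759) and FJX1 (chromosome 11, 35618460 to 35620865) hold no other annotated gene.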

How the data were processed

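RNA-seq was run on 1 hypoxia and 1 normoxia library of H1975 cells. Per the labels' protocols, total RNA was extracted with TRIzol for a stranded mRNA kit. Per the submitters' processing notes, HISAT2, HTSeq, Cufflinks, Bowtie and Trimmomatic were used with build GRCh38, with neither versions nor roles stated. The authors deposited whole-number read counts per gene. They also deposited FPKM, which equal the counts divided by the table total and a gene length: the length implied by the 2 libraries was the same within 0.01 bases for 100% of genes counted in both. Levels are given in FPKM.

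Counts were scaled with TMM (edgeR 4.0.16, R 4.3.3), fitted on the whole table. Ratios carry exact conditional (Clopper-Pearson) 95% intervals and levels Poisson intervals, computed in Python 3.11.15 with scipy 1.17.1. Intervals cover counting error only, and reads are not independent molecules, since they carry no molecular identifiers. 1 read was worth 0.0530 CPM in hypoxia and 0.0565 CPM in normoxia. The length trend was a lowess fit (statsmodels 0.14.6, span 0.3). All 10 genes are described. HIF targets are given as a count and a median. Cell type markers are given as sums, with each called marker and some others also named. Of every other list on the pathway, the highest, the lowest and each called gene were named. Relatives of the 10 genes and genes of YAP, TAZ and TEAD were named besides. Some further genes of these lists are given with their role, chosen after their values were seen. The 10 genes and the lists were chosen with earlier results of these data known. Promoter sequence came from RefSeq, matched by symbol. The alternatives were scaling by DESeq2 1.42.0 size factors, by upper quartile and by total counts, use of FPKM (pseudocount 1 or 0.1), filtering at 5 CPM or not at all, and removal of the length trend.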

Additional observations from a re-analysis of the deposited data

How the results depend on the processing

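Each of the 10 genes kept its direction under scaling by DESeq2 size factors, upper quartile or total counts, under FPKM (pseudocount 1 or 0.1), with filtering at 5 CPM or none, and with the length trend removed. Filtering leaves each ratio as it is, and another scaling shifts all genes alike (by -0.0098 for total counts). FPKM rest on the same counts. Under these settings the kept directions were therefore nearly fixed in advance, and only the length trend acts gene by gene on the counts. The log2 ratio ran from -0.68 to -0.63 for CCN1, from -0.66 to -0.61 for CCN2, from -0.73 to -0.58 for ANKRD1, from -0.55 to -0.50 for AMOTL2 and from 0.16 to 0.24 for PTPN14. The median of the 10 ran from -0.44 to -0.40. The number called lower was 6 under all of these except removal of the length trend, where it was 5 because F3 was no longer called. FPKM with a pseudocount of 1, where low levels are pulled towards each other, lowered the number of all genes called lower to 228, against 419, and of those called higher to 183, against 434. In the FPKM calls only the ratio came from FPKM, and the interval remained that of the TMM-scaled counts. No paired analysis was possible because each condition has 1 library. For the same reason no library could be left out, and no value measures the spread between cultures. ANKRD1, from 100 hypoxia and 155 normoxia counts, is the gene whose ratio depth limits most.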

Other observations

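The deposited table assigns 142 genes to the Hippo signalling pathway in its own pathway column, among them AJUBA, CCN2 and LATS2. Of the 139 others 119 passed the filter, with a median log2 ratio of -0.01, and 6 were called lower and 1 higher in hypoxia, where 3.29% of all genes tested were called lower and 3.41% higher. The genes called lower were the LIM protein WTIP, FZD6, FZD8, FZD9, NKD2 and BMP6. The Wnt receptor FZD6 had 326 counts in hypoxia, against 404 in normoxia, giving a log2 ratio of -0.40 (-0.62 to -0.19). FZD9 had 95 counts in hypoxia, against 131 in normoxia, giving a log2 ratio of -0.56 (-0.95 to -0.16). NKD2, an inhibitor of Wnt signalling, had 58 counts in hypoxia, against 102 in normoxia, giving a log2 ratio of -0.91 (-1.40 to -0.43). FZD8 and the ligand BMP6 had 11 counts each in hypoxia, against 23 and 25 in normoxia. TGFB3, a growth factor, was the gene called higher, with 311 counts in hypoxia and 216 in normoxia and a log2 ratio of 0.43 (0.18 to 0.69). The highest ratio of these genes was that of PPP2R2C, a regulatory subunit of a phosphatase, at 0.64 (-0.25 to 1.57), from 30 counts in hypoxia and 18 in normoxia, which was not called. These genes were listed after the deposited pathway column had been read.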
